A study of Mus musculus with 15 samples.

Results

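The comparison set RAW 264.7 cells given RANKL against untreated cells of the same line at day 2, with 2 arrays in each group, so 4 of the 15 arrays of the series. RAW 264.7 is an established mouse macrophage cell line. The RANKL arrays of day 2 are those titled RAW_RL_day2 and RAW_RL_day2_rep2, and the control arrays are RAW_CTRL_day2 and RAW_CTRL_day2_rep2. All cells grew in alpha MEM with fetal bovine serum and antibiotics. RANKL was made up in serum-free medium and given on day 0 and again on day 3, so the day 2 RNA was taken after the first addition alone. The labels call the cells of both day 2 groups mononuclear, that is, not yet fused. They do not say whether the 2 arrays of a group came from separate cultures, so the p-values below measure the spread between arrays, which may be technical. The 15 arrays include none of RANKL cells at day 3.

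RANKL is a cytokine of the TNF family under which macrophage-like precursors mature and fuse into bone-resorbing osteoclasts. It binds the receptor RANK, which recruits TRAF adaptor proteins and so activates NF-kB and the MAP kinases. These raise AP-1 and NFATc1, the transcription factor that switches on the resorption genes, among them tartrate-resistant acid phosphatase and cathepsin K. Precursor cells also hold repressors of this programme, such as IRF8 and BCL6, and lose part of their macrophage surface proteins as they commit and fuse.

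Gene expression was read as deposited hybridisation signals, in linear units in which the trimmed mean of every array is 500. The median signal was 121 and 132 on the control arrays of day 2 and 134 and 111 on the RANKL arrays. The 2 control arrays correlated at 0.981 and the 2 RANKL arrays at 0.977 over all probe sets on the log2 scale. The ratio of the 3′ to the 5′ probe set of beta-actin, which rises as RNA shortens, was 1.17 and 1.25 in the controls and 1.25 and 1.39 with RANKL. The value of 1.39, on RANKL replicate 2, was the highest of the 15 arrays. The same ratio for Gapdh was 0.92 and 1.01 in the controls and 0.89 and 1.01 with RANKL. Among the macrophage markers, Cd14, Lyz2 and Csf1r, the M-CSF receptor, were bright in both groups. Cd14 read 20623 and 18176 in the controls and 14107 and 22994 with RANKL. Lyz2 read 14712 and 11188 and 8465 and 11844, and Csf1r 8730 and 10691 and 6753 and 6763. Other markers were dimmer: Itgam read 205 and 297 and 42.4 and 46.2, and Adgre1 493 and 523 and 182 and 162.

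Differences are of log2(signal + 32), RANKL minus control, each with its standard error from limma, and a probe set was called where the adjusted p was under 0.05. Of 12422 probe sets, 106 were called at day 2, or 0.853%, of which 39 were higher and 67 lower with RANKL. With 1 representing probe set per gene, 82 of 8251 genes were called (0.994%): 30 rose (0.364%) and 52 fell (0.63%). On all 106 called probe sets both RANKL arrays lay on the same side of both control arrays. Over all genes, both RANKL arrays were above both controls for 1575 (19.1%) and below for 1694 (20.5%). These shares of all genes are the background for the counts of each gene list below. The median difference of all genes was 0.000507, on arrays that had all been scaled to the same trimmed mean. Of the 233 genes whose difference exceeded 1 in either direction, 157 were not called.

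The calls rested on all 4 arrays of day 2. Without control replicate 1, 22 of the 82 genes were still called, and without control replicate 2, RANKL replicate 1 or RANKL replicate 2 only Acp5 was. All 82 kept their direction in each of these 4 fits. That outcome was fixed beforehand, because both RANKL arrays lay on the same side of both controls for every called gene. With the beta-actin ratio in the model, 21 of the 82 were still called, and all 82 kept their direction and over 50% of their difference. What part RNA length has in the other calls was not tested. Without either control array of day 4, which lend only their spread, 44 of the 82 remained.

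**Figure D1:**
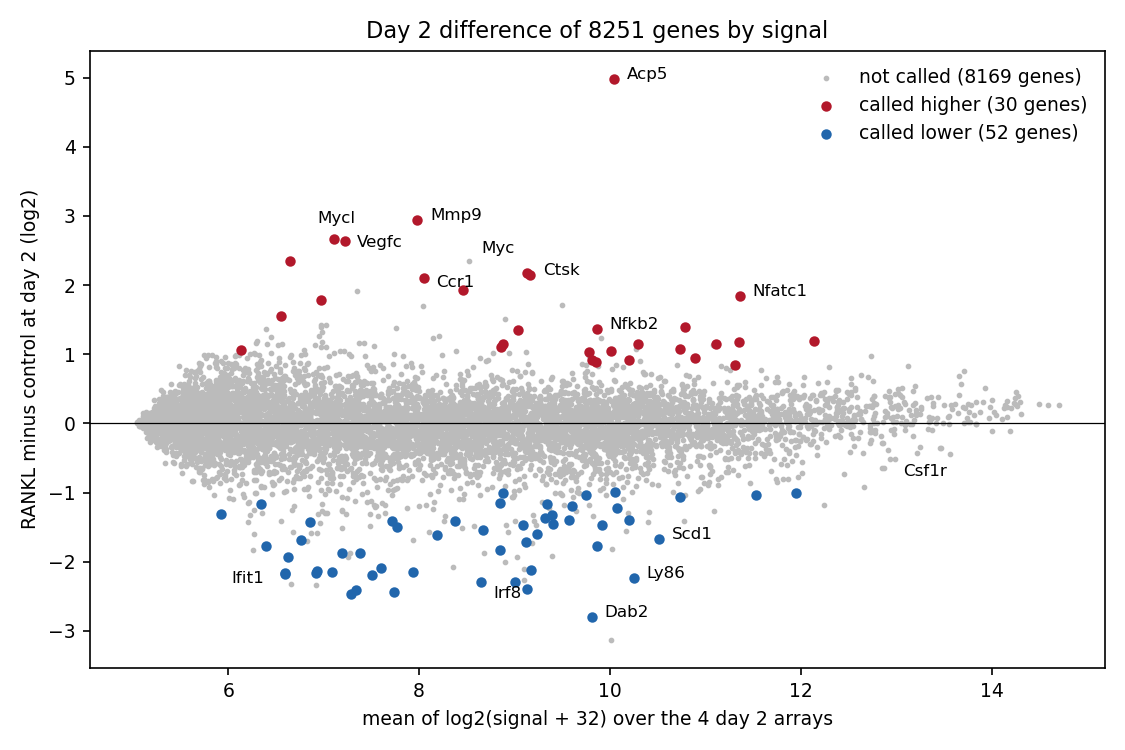
Difference between RANKL and control at day 2 (y axis, log2) against the mean of log2(signal + 32) over the 4 arrays of day 2 (x axis) for 8251 genes, with the 30 called higher in red, the 52 called lower in blue and the rest in grey. Acp5 stands alone at 4.98, the called falls reach -2.80 for Dab2, and the uncalled grey points spread more among dim genes.

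The resorption genes of the osteoclast gave the largest rise. Acp5, tartrate-resistant acid phosphatase, read 257 and 90.6 in the controls and 5066 and 6914 with RANKL, a rise of 4.98 ± 0.36 (adjusted p = 0.000118). Both RANKL arrays were far above both controls, and Acp5 was the only gene still called in each of the 24 alternative fits run on it. Ctsk, cathepsin K, which digests bone collagen, read 285 and 204 without and 1051 and 1310 with RANKL and rose by 2.14 ± 0.26 (adjusted p = 0.00781). Mmp9, a secreted gelatinase, read 155 and 12.8 and 709 and 628 and rose by 2.93 ± 0.51 (adjusted p = 0.0274). Both Mmp9 controls lay below both RANKL arrays but differed widely from each other, the lower one being very dim. Mmp9 controls of other days were brighter: 477 at day 1, 745 and 896 at day 3, 665 and 432 at day 4, and 445 at day 5. Set against the mean of the 2 day 1 arrays, Mmp9 at day 2 was at 0.74 with RANKL and at -2.19 in the controls.

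These were the 3 called genes among 24 of the resorption and fusion list (12.5%, beside 0.994% of all genes). Of the 24, 18 were above 0 and 6 below, with a median of 0.33. Both RANKL arrays were above both controls for 12, beside 19.1% of all genes. Slc9b2, a sodium-proton exchanger, was at 1.25 ± 0.43 without a call (adjusted p = 0.299). Car2, carbonic anhydrase 2, was at 0.65, the chloride channel Clcn7 at 0.35 and Tcirg1, the osteoclast subunit of the proton pump, at 0.29. Both of the following markers of the mature cell were very dim. Calcr, the calcitonin receptor, read 4.30 and 4.78 and 4.24 and 3.84, and Itgb3, the beta chain of the vitronectin receptor, 11.6 and 10.8 and 8.42 and 38.5. None of the 14 V-ATPase subunits, which build the proton pump, was called, while 6 were above 0 at an unadjusted p under 0.05 and none below. That p was met by 1251 of all 12422 probe sets, higher and lower together. The V-ATPase median was 0.35 (0.18 with the beta-actin ratio), with Atp6ap2 at 1.04 ± 0.31 and the catalytic subunit Atp6v1a at 0.70 ± 0.20.

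Transcription factors moved both ways. Nfatc1, the NFAT factor that directs the osteoclast programme, read 2134 and 861 in the controls and 5340 and 4632 with RANKL and rose by 1.85 ± 0.37 (adjusted p = 0.0461). Both RANKL arrays were above both controls, which lay apart from each other, and the call was lost in 15 of 24 alternatives. Mycl, which encodes L-Myc, went from 22.2 and 23.2 to 355 and 278, a rise of 2.66 ± 0.54 (adjusted p = 0.0492). Its control signals were dim, and its call was lost in 15 of 23 alternatives. Its relative Myc was at 2.35 ± 0.53 and missed the call (adjusted p = 0.0776), with control signals of 313 and 45.2 that lay far apart and 813 and 784 with RANKL.

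Of the factors known to hold osteoclast precursors back, Irf8 fell. It read 684 and 1068 in the controls and 206 and 107 with RANKL, and fell by 2.29 ± 0.39 (adjusted p = 0.0264). Mef2c, a MADS-box factor not counted here among those repressors, read 258 and 252 and 48.8 and 19.7. It fell by 2.15 ± 0.38 (adjusted p = 0.0273). The brightest RANKL array was below the dimmest control for both genes. Bcl6 was at -0.73 and Id1, an inhibitor of helix-loop-helix factors, at -1.57 ± 0.43, neither of them called. The lysosomal regulator Tfeb, also not counted among the repressors, was at -1.41 ± 0.43 with no call. Over the 28 factors listed, which do not include Mef2c, 2 were called higher and 1 lower, and the median was 0.063. The share called was 10.7%, beside 0.994% of all genes. The AP-1 genes were not called: Fos was at 0.58 ± 0.24, Fosl2 at 0.98 ± 0.24 and Jun at -0.69. Spi1, the PU.1 factor of myeloid cells, was at 0.27 ± 0.19, and Mitf at 8.8e-05 ± 0.25.

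Of the NF-kB pathway, 2 of 24 measured genes rose (8.33%, beside 0.364% of all genes) and none fell. Nfkb2, the p100 precursor of the alternative pathway, read 626 and 477 in the controls and 1536 and 1397 with RANKL and rose by 1.37 ± 0.18 (adjusted p = 0.00916). Bcl3, a nuclear IkB protein that partners p50 and p52, went from 280 and 288 to 619 and 720 and rose by 1.15 ± 0.16 (adjusted p = 0.0101). Replicates of each gene differed by far less than the groups did. Traf1, an adaptor whose gene is an NF-kB target, was at 1.71 ± 0.37 (adjusted p = 0.0663, not called), with control signals of 630 and 210 and RANKL signals of 1347 and 1217. Birc3, which encodes cIAP2, was at 0.94 ± 0.31 and the inhibitor gene Nfkbia at 0.58 ± 0.22.

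Of the 24, 18 were above 0, and the median was 0.26. The receptor gene itself, Tnfrsf11a (RANK), read 394 and 591 and 646 and 460, so the groups overlapped. Traf6, the main adaptor of RANK, was at -0.29 ± 0.25, and Traf5 at -1.30 ± 0.39 without a call. The median of the list was 0.14 to 0.42 over the alternatives, above 0 in each.

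The promoters of Nfkb2 and Nfkbia are shown because both hold the NF-kB type motif GGGANNTTCC upstream of the start in RefSeq (GRCm38.p6). The motif, on either strand, is in capitals. The Nfkb2 stretch is chr19:46305445-46305508 (plus strand) and the Nfkbia stretch chr12:55492648-55492716 (minus strand).
Nfkb2: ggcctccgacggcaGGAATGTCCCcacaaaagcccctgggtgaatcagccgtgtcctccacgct
Nfkbia: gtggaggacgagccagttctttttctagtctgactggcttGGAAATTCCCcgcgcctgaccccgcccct
The motif was found in 3 of the 21 pathway genes with a promoter in the table (14.3%). It was as frequent in the interferon-induced genes, a list mostly below 0, with 5 of 34 (14.7%). Of the called genes, 2 of 26 rises, Nfkb2 and Slc6a12, and 1 of 43 falls, Ifit2, held it. Of all 27025 genes of the table it was in 1.63%, counting windows from 250 bases before to 50 after each start. A match describes the letters of the window, and binding was not measured. The palindrome of the AP-1 type, TGANTCA, was in 4 of the 26 rises and 4 of the 43 falls, against 8.97% of all genes. It was in 4 of 21 pathway genes (19.0%) and 9 of 34 interferon-induced genes (26.5%). Some genes have several windows. Counted by window, the AP-1 type was in 8.89% for the rises, 6.67% for the falls and 7.81% for all genes.

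The MAP kinase group held 1 rise and 3 falls among 23 measured genes (17.4% called, beside 0.994% of all genes). Dusp1, a phosphatase that switches off p38 and JNK, read 1098 and 1191 in the controls and 2363 and 2539 with RANKL and rose by 1.08 ± 0.22 (adjusted p = 0.0493). Dusp6, the phosphatase that acts on ERK, went the other way, from 417 and 518 to 59.7 and 60.7, and fell by 2.43 ± 0.45 (adjusted p = 0.0368). In both genes the 2 arrays of each group lay close together and the groups apart.

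Pea15a, a protein that binds ERK in the cytoplasm, fell by 2.41 ± 0.36 (adjusted p = 0.0123), from 273 and 425 to 39.8 and 36.7. Egr1, an immediate-early gene downstream of ERK, fell by 1.61 ± 0.27 (adjusted p = 0.0257), from 441 and 516 to 136 and 134. A dim second probe set of Egr1 was at 0.44 and not called. Rgs2, a brake on G-protein signalling, was at -1.34 ± 0.40 and Ier3, a stress-induced early gene, at 1.13 ± 0.50, neither called. Map3k1, the kinase MEKK1, was outside this list and fell by 1.16 ± 0.21 (adjusted p = 0.0297).

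**Figure D2:**
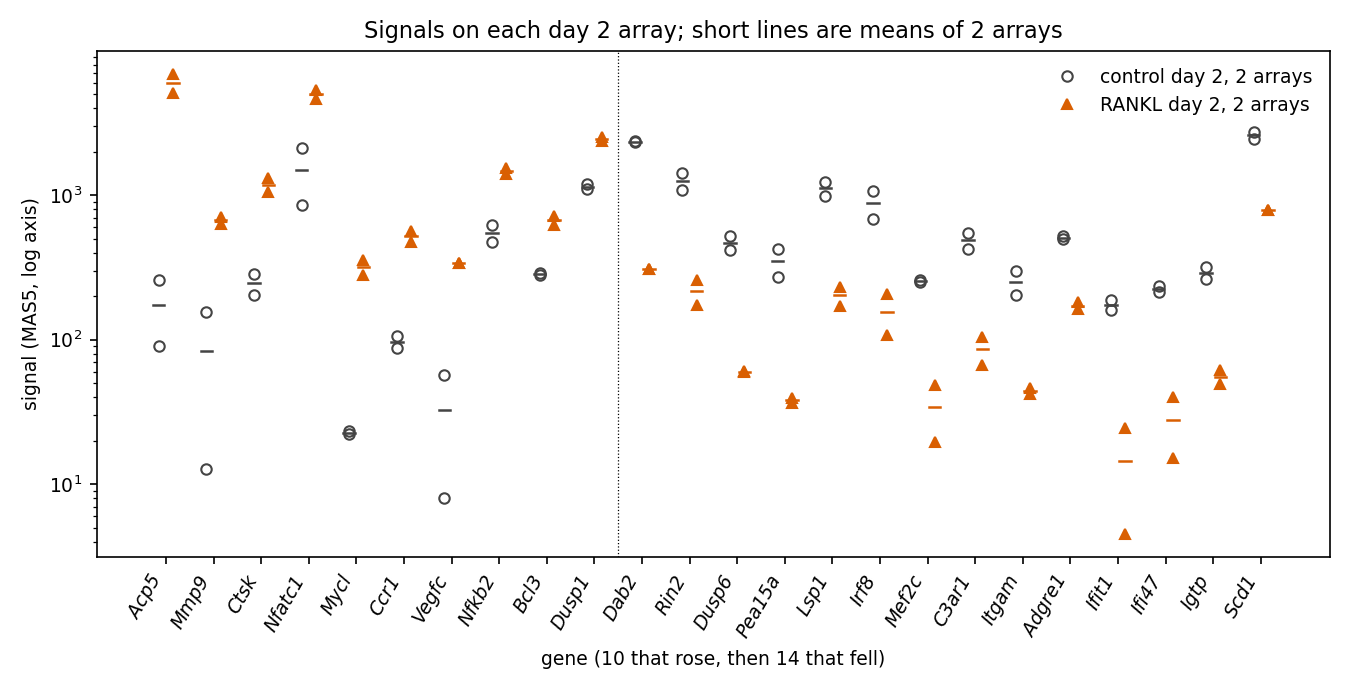
Signal (y axis, log scale) on the 2 control arrays (open circles) and 2 RANKL arrays (filled triangles) of day 2 for 10 genes that rose and 14 that fell (x axis), with short lines at the group means. No control array overlaps a RANKL array for any of the 24 genes; Acp5 shows the widest gap, and the control signals of Mmp9 and Vegfc reach down to 12.8 and 8.06.

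Among the other rises were genes of signalling and of small-molecule metabolism. Ccr1, the receptor of the chemokines CCL3, CCL5 and CCL9, read 106 and 86.9 in the controls and 563 and 472 with RANKL and rose by 2.10 ± 0.25 (adjusted p = 0.00781). It was the only gene called among 56 cytokines, chemokines and receptors (1.79%, beside 0.994% of all genes). Of the 56, 33 were below 0, each gene read on its representing probe set. A second probe set of Il17ra, an interleukin 17 receptor chain, was called lower, at -1.32 ± 0.27 (adjusted p = 0.0492), beside -0.20 on the representing one. Ccl4 was at -2.10 ± 0.89, Tnf at -1.22 ± 0.56 and Ccl9 at 0.45, with no call. Vegfc, the lymphatic endothelial growth factor, read 57.3 and 8.06 and 342 and 339 and rose by 2.64 ± 0.35 (adjusted p = 0.00921). Both genes had RANKL arrays well clear of the controls.

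Gstt1, a glutathione transferase, read 12.5 and 12.6 in the controls, both dim, and 193 and 195 with RANKL, a rise of 2.35 ± 0.40 (adjusted p = 0.0257). Acy1, aminoacylase 1, went from 294 and 181 to 1148 and 1173 and rose by 2.18 ± 0.32 (adjusted p = 0.0123). Chchd10, a mitochondrial intermembrane-space protein, went from 123 and 179 to 631 and 686 and rose by 1.93 ± 0.25 (adjusted p = 0.00916). In these genes the replicates agreed closely within the RANKL group.

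Slc6a8, the creatine transporter, rose by 1.78 ± 0.33 (adjusted p = 0.0368) and Ak1, adenylate kinase 1, by 1.55 ± 0.30 (adjusted p = 0.0416), both from control signals under 50. Slc25a5, the mitochondrial ADP/ATP carrier, was bright and read 1867 and 1850 and 3364 and 3369, the smallest of the called rises at 0.85 ± 0.15 (adjusted p = 0.0273). Slc6a12, the betaine and GABA transporter, rose by 1.14 ± 0.20 and Pltp, the phospholipid transfer protein, by 0.95 ± 0.18. A second probe set of Slc6a8, dim on all 4 arrays, was at -0.06.

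The remaining rises had differences from 0.88 to 1.39. They included Ptpn22, a lymphoid tyrosine phosphatase, at 1.18 ± 0.22, the integrin chain Itgb7 at 1.15 ± 0.21, the collagen receptor kinase Ddr1 at 1.06 ± 0.20 and the small GTPase gene Rala at 1.03 ± 0.17. Dap, a death-associated protein, was among the brightest of them, with 2901 and 3013 in the controls and 6874 and 6720 with RANKL. Kif3c, a kinesin, rose by 1.11 ± 0.21, Hagh, glyoxalase II, by 1.04 ± 0.19 and the sialyltransferase gene St6galnac4 by 1.35 ± 0.23. The others were 2810025M15Rik, Fam102a, Ndrg4 and Rnf19b.

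Among macrophage surface genes, 6 of 39 fell (15.4%, beside 0.63% of all genes) and none rose, and 33 of the 39 were below 0. The median was -0.51. Both RANKL arrays were below both controls for 23 (59.0%, beside 20.5% of all genes). Itgam, CD11b, the alpha chain of the complement receptor 3, read 205 and 297 in the controls and 42.4 and 46.2 with RANKL and fell by 1.87 ± 0.32 (adjusted p = 0.0257). Adgre1, the F4/80 antigen, went from 493 and 523 to 182 and 162 and fell by 1.40 ± 0.18 (adjusted p = 0.00916). The arrays within each group were close for both genes.

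The anaphylatoxin receptors fell together. C3ar1 read 422 and 549 and 105 and 66.8 and fell by 2.14 ± 0.40 (adjusted p = 0.0368), and C5ar1 fell by 1.45 ± 0.29 (adjusted p = 0.0461), from 938 and 1256 to 444 and 321. The scavenger receptor gene Msr1 fell by 1.54 ± 0.31 (adjusted p = 0.0488) and Cd52, a small glycoprotein of leukocytes, by 1.00 ± 0.19 (adjusted p = 0.0394). Mpeg1, the pore-forming perforin-2, was at -3.13 ± 0.73 with no call (adjusted p = 0.0916), with 2828 and 3202 in the controls and 338 and 295 with RANKL. Its groups were far apart, but the spread pooled over the other days was wide. Fcgr1, the high-affinity IgG receptor, was at -2.07 ± 0.58 and Ptprc, CD45, at -1.03 ± 0.28, also uncalled.

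The brightest identity markers showed smaller differences. Csf1r was at -0.51 ± 0.20 (adjusted p = 0.403), with both RANKL arrays below both controls. Cd14, Lyz2 and Tyrobp, at -0.10 ± 0.29, -0.36 ± 0.30 and -0.09 ± 0.31, overlapped between the groups, and the signs of Cd14 and Tyrobp turned without 1 of the day 2 arrays. Cd68, a lysosomal marker of macrophages, was at 0.20 ± 0.17. Fcer1g, another macrophage marker, had a larger difference of -0.70 without a call (adjusted p = 0.482), from -1.01 to -0.60 over the alternatives. In bulk RNA, fewer cells with a transcript and less of it in each cell cannot be told apart.

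Further falls outside this list were in genes of innate sensing and leukocytes. Ly86, MD-1, the partner of the receptor RP105, read 2809 and 2424 and 425 and 653 and fell by 2.24 ± 0.37 (adjusted p = 0.0257). Lsp1, an actin-binding protein of leukocytes, fell by 2.30 ± 0.28 (adjusted p = 0.00781), from 992 and 1240 to 172 and 232, and its second probe set fell by 2.02. Lgals9, galectin 9, fell by 2.12 ± 0.42, Ptger4, the prostaglandin receptor EP4, by 1.49 ± 0.30, and Cd276 and Pdcd1, both of the B7 and CD28 families, by 1.42 ± 0.28 and 1.17 ± 0.22. Pdcd1 was dim, with 107 and 74.1 in the controls and 26.2 and 18.1 with RANKL. Of 18 complement and clotting genes, only the pair of anaphylatoxin receptors was called (11.1%, beside 0.994% of all genes), and the median was -0.61.

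Interferon-induced genes were lower nearly throughout the list. Of 40 measured, 39 were below 0, and 33 had both RANKL arrays below both controls, a share of 82.5% beside 20.5% of all genes. The median was -0.89, 5 were called lower (12.5%, beside 0.63% of all genes) and none higher. Between replicate arrays the median level of the list had a standard deviation of 0.37, so its members were not independent of each other. Ifit1, an RNA-binding antiviral protein, read 190 and 160 in the controls and 4.51 and 24.6 with RANKL and fell by 2.18 ± 0.34 (adjusted p = 0.0183). The immunity-related GTPases Ifi47 and Igtp fell by 2.13 ± 0.43 (adjusted p = 0.0486) and 1.87 ± 0.31 (adjusted p = 0.0257). Igtp read 317 and 261 without and 61.7 and 49.2 with RANKL. Ifit2 read 63.6 and 62.8 and 7.66 and 5.42 and fell by 1.30 ± 0.21. At such low signals the size depends on the constant added: with 1 in place of 32 Ifit2 was at -3.11 and Ifit1 at -3.88, and with 100 at -0.61 and -1.27. Tap1, a subunit of the peptide transporter for class I molecules, fell by 1.37 ± 0.27, although a dim second probe set of Tap1 was at 0.57.

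The largest difference of the list belonged to a gene that missed the call, Isg20, at -2.33 ± 0.51 (adjusted p = 0.0688), from 227 and 252 to 19.3 and 24.4. Usp18, which trims ISG15 from proteins, was at -2.26 ± 0.53 (adjusted p = 0.0943), Irf7, the factor that amplifies the response, at -1.93 ± 0.73 and Isg15 at -1.72 ± 0.51. Usp18 read 1199 and 1131 in the controls against 189 and 251 with RANKL. The groups of all 4 genes lay apart. Of the 40, 26 were lower at an unadjusted p under 0.05. The median stayed between -0.99 and -0.62 over the 25 alternatives, and was -0.86 with the beta-actin ratio, where none was called.

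Several of these promoters are shown because they carry the element to which interferon-activated factors and IRF proteins are known to bind. The ISRE type motif searched was GAAANNGAAA on either strand, in capitals, in RefSeq promoters (GRCm38.p6). Ifit1 is chr19:34640745-34640853 (plus), Ifit3 chr19:34583333-34583456 (plus), Isg15 chr4:156200835-156200936 (minus), Igtp chr11:58199482-58199555 (plus) and Irgm1 chr11:48871421-48871490 (minus).
Ifit1: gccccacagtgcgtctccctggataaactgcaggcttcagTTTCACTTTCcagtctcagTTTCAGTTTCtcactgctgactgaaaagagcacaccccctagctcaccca
Ifit3: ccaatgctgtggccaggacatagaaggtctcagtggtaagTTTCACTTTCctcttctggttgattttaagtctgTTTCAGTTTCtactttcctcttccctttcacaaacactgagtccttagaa
Isg15: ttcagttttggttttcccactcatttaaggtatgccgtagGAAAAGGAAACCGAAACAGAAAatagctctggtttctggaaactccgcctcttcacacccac
Igtp: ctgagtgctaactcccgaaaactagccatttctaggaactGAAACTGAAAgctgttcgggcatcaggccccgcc
Irgm1: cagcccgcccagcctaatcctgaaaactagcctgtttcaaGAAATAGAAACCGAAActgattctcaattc
Ifit1 and Igtp were called. Ifit3 was at -0.89 ± 0.29, Isg15 at -1.72 ± 0.51 and Irgm1 at -1.19 ± 0.42. The motif was in 14 of the 34 interferon genes with a promoter in the table (41.2%) and in 3.99% of all genes, among them 1 of 26 called rises and 3 of 43 called falls. The 14 with the motif had a median difference of -0.92 and the 20 without it one of -0.96, values close to each other. The matches in Isg15 and Irgm1 overlap one another.

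Antigen presentation overlapped with this list. Of 21 genes, only Tap1 was called (4.76%, beside 0.994% of all genes), and the median was -0.41. The median level of this list had a standard deviation of 0.35 between replicate arrays. Tap2, the partner subunit, was at -1.07, and the immunoproteasome subunits Psmb9 and Psmb8 were at -1.27 and -0.90. The class I heavy chains H2-K1 and H2-D1 were at -0.079 and 0.0077, and B2m at 0.11.

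An endocytic gene gave the largest fall among the called genes. Dab2, a clathrin adaptor, read 2360 and 2330 in the controls and 308 and 308 with RANKL and fell by 2.80 ± 0.40 (adjusted p = 0.0123). Of its other probe sets, the first fell by 1.59 and the second, dim, was at -0.61 with no call. Rin2, an exchange factor for Rab5, read 1087 and 1433 and 259 and 173 and fell by 2.39 ± 0.35 (adjusted p = 0.0123). They were the only calls among 30 endocytic genes (6.67%, beside 0.994% of all genes), whose median was -0.13.

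Of 55 podosome, integrin and actin-linker genes, 5 fell and 1, Itgb7, rose, with a median of -0.17. The share called was 10.9%, beside 0.994% of all genes. Evl, an Ena/VASP protein that lengthens actin filaments, fell by 2.47 ± 0.38 (adjusted p = 0.0188), from 235 and 472 to 33.8 and 34.9. Itgb5, the beta chain that shares the alpha v partner with Itgb3, fell by 1.83 ± 0.35 (adjusted p = 0.0394), from 741 and 937 to 148 and 300. Ptk2b, the adhesion kinase PYK2, fell by 1.39 ± 0.24 (adjusted p = 0.0257), from 925 and 1566 to 464 and 413. Its 2 control arrays differed more than its RANKL arrays but lay above both. Src was at 0.64 and Itgav at 0.12 ± 0.23, neither called. Tubb2a, a beta-tubulin, fell by 0.99 ± 0.20 on its main probe set while a second one was at 0.12.

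Of 29 genes of semaphorins, plexins and angiogenic factors, Nrp1 and Sema4a fell and Vegfc rose, with a median of -0.028. The share called was 10.3%, beside 0.994% of all genes. Nrp1, neuropilin 1, a receptor for semaphorins and VEGF, read 186 and 268 and 41.7 and 12.4 and fell by 2.16 ± 0.42 (adjusted p = 0.0416). Sema4a, a membrane semaphorin, fell by 1.32 ± 0.24 (adjusted p = 0.0305). Another semaphorin gene, Sema4b, had a second probe set that was called higher, at 1.38 ± 0.25 (adjusted p = 0.0305), while the one that represents it was at -0.028. Igf1, insulin-like growth factor 1, had a second probe set that was called lower, at -3.92 ± 0.20 (adjusted p = 5.5e-06), beside -0.73 on the one that represents it.

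Of 30 lysosomal genes, 2 fell (6.67%, beside 0.63% of all genes), both of them cathepsins unlike cathepsin K in direction. Ctsc, cathepsin C, which activates granule proteases, read 983 and 1050 and 307 and 320 and fell by 1.60 ± 0.23 (adjusted p = 0.0123). Ctsl, cathepsin L, fell by 1.03 ± 0.19 (adjusted p = 0.0368), from 4516 and 3891 to 1953 and 2129. In each, both RANKL arrays were far below both controls. Lamp2, a lysosomal membrane protein, was at -1.19 ± 0.25 and not called (adjusted p = 0.0609). The other cathepsin genes of the list were not called: Ctsb, Ctsd and Ctss were at -0.35, -0.51 and -0.18, and Ctsa, Ctse, Ctsh and Ctsz at 0.12, 0.13, 0.14 and 0.28.

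Of 24 genes of sterol and fatty acid synthesis, 23 were below 0 and 1 was called (4.17%, beside 0.994% of all genes). Scd1, the stearoyl-CoA desaturase, read 2448 and 2734 in the controls and 784 and 794 with RANKL and fell by 1.67 ± 0.20 (adjusted p = 0.00781). Its brighter probe sets were both called, the second with a fall of 2.51, while the third, dim, was at 0.36. The median of the list was -0.53, and 18 of 24 had both RANKL arrays below both controls (75%, beside 20.5% of all genes). Hmgcs1, the synthase at the head of the mevalonate pathway, was at -1.04 ± 0.42, Idi1, the isomerase, at -0.96 ± 0.43, and squalene epoxidase, Sqle, at -0.69 ± 0.22, with no call. At days 4 and 5 the median of the same genes was 0.022 and 0.56.

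Other called falls covered many functions. Anxa3, an annexin, fell by 2.20 ± 0.31 and Itpkb, an inositol trisphosphate kinase, by 1.71 ± 0.29. Adcy2, an adenylate cyclase, fell by 2.09 ± 0.28. The amino acid transporter gene Slc7a8 fell by 1.69 ± 0.33, the secreted kinase gene Fam20c by 1.47 ± 0.25, the signalling phosphatase gene Ptpra by 1.04 ± 0.20 and the phospholipase D family gene Pld4 by 1.39 ± 0.18. Rnase4, Ambp and Ppfia4 fell by 1.77 ± 0.32, 2.15 ± 0.36 and 1.93 ± 0.31 to signals under 30 with RANKL, where the size depends on the constant added to the signal. Trafd1, Pex11a, Retreg1, Adssl1, Cdk14, Napsa and Rassf5 were also among them, with falls of 1.00 to 1.47.

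**Figure D3:**
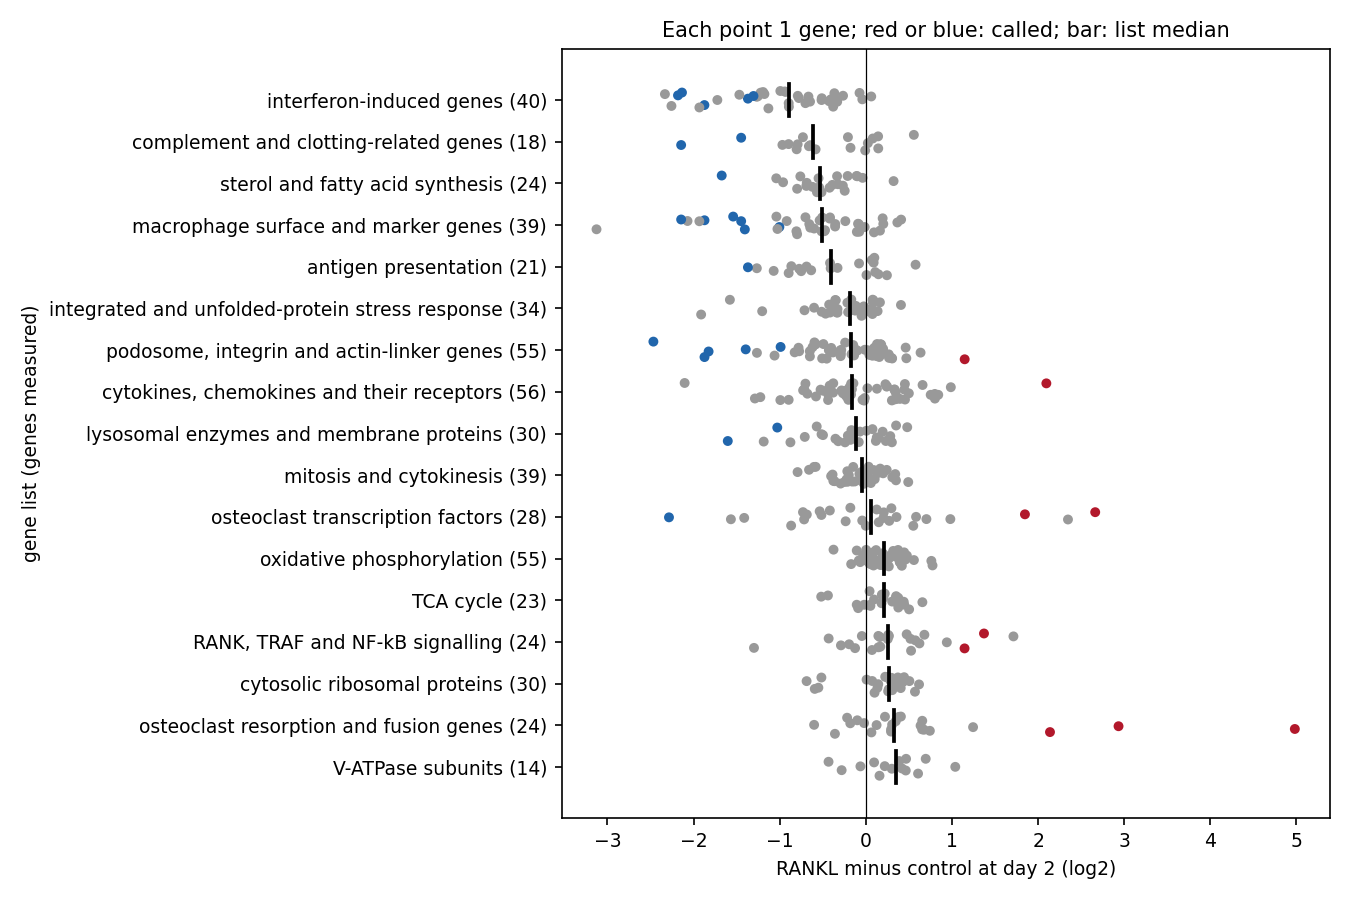
Difference between RANKL and control at day 2 (x axis, log2) for the measured genes of 17 lists (y axis, with the number of genes), 1 point a gene, red where called higher, blue where called lower, grey where not called, with a black bar at the list median. Nearly all interferon-induced and sterol genes lie left of 0, and the called rises stand far from the medians of their lists.

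In several other groups none of the members was called. Of 55 genes of oxidative phosphorylation, 47 were above 0 with a median of 0.21, and of 23 genes of the TCA cycle 18, with a median of 0.21. At an unadjusted p under 0.05, 6 and 4 of them were higher and none lower. The same p was met by 1251 of all 12422 probe sets, higher and lower together. Idh3g, a subunit of isocitrate dehydrogenase, was at 0.66 ± 0.16 and Ndufb3, of complex I, at 0.77 ± 0.24. The oxidative median was the least steady of the 2, from -0.01 to 0.47 over the alternatives, against 0.15 to 0.29 for the TCA cycle. Between replicate arrays the median levels of the lists had standard deviations of 0.25 and 0.10.

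Cytosolic ribosomal proteins had 26 of 30 above 0 (median 0.27, from -0.026 to 0.53), with 2 higher and 1 lower at an unadjusted p under 0.05. The 40 genes of ribosome assembly and Myc-linked growth had 29 above 0 and a median of 0.18, with 6 higher and none lower. Glycolysis was centred on 0, with 11 of 21 above, 1 higher and 3 lower at that p. The genes of the integrated and unfolded-protein stress response had 25 of 34 below 0 and a median of -0.19, with none higher and 2 lower. Between replicate arrays the median level of that list had a standard deviation of 0.46, more than the difference. Atf3, a stress-induced factor, was at -1.91 ± 0.65, from 1207 and 1343 to 360 and 275, with an adjusted p of 0.29. Its groups lay far apart at day 2.

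The cell-cycle lists were also without calls. Of 40 replication genes 28 were below 0 (median -0.10), with 3 lower and none higher at an unadjusted p under 0.05, and of 39 mitosis genes 23 (median -0.05), with 1 lower and none higher. Mki67, the Ki-67 antigen, was at -0.79 ± 0.40. Among 40 cyclins, growth-arrest and apoptosis genes 24 were below 0, 6 of them and 1 above at that p, and Bcl2l1, the survival factor Bcl-xL, was at -1.03 ± 0.29. Both RANKL arrays were below both controls for 18 of these 40 (45%, beside 20.5% of all genes).

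Markers of other cells gave no call. The lists covered stroma and osteoblasts (18 genes), T and NK cells (13), B cells (11), neutrophils and mast cells (15), erythroid cells (6) and dendritic cells (15), with medians from -0.05 to 0.34. At an unadjusted p under 0.05, 0, 1, 1, 1, 1 and 1 of them were higher and 0, 0, 0, 0, 0 and 2 lower. The dendritic pair below 0 was led by H2-DMa at -0.69 ± 0.23 and Itgax, CD11c, at -0.66 ± 0.29.

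The genes called at day 2 were then followed to days 4 and 5, on arrays of other RNA with their own controls. Of the 30 rises, 29 were above 0 at day 4 and 29 at day 5, and 9 and 15 of them were called there. Of all genes above 0 at day 2, 48.6% were above 0 at day 4 and 69.7% at day 5. Of the 52 falls, 47 and 50 were below 0 at days 4 and 5, against 54.8% and 47.9% of all genes below 0 at day 2, and 3 and 15 were called. None was called in the other direction. Over all genes, 27 (0.327%) were called at day 4 and 100 (1.21%) at day 5. The day 5 control is 1 array, whose spread is taken from the other groups.

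The size of the differences varied over the days. The 30 rises had a median of 1.27 at day 2, 0.82 at day 4 and 1.28 at day 5, and the 52 falls medians of -1.64, -0.42 and -1.26. Since the genes were chosen on their day 2 difference, a smaller value at another day is partly fixed by that choice. Acp5 and Ctsk were at 6.03 and 3.53 at day 4 and at 7.15 and 5.19 at day 5. Nfkb2 was at 0.11 and 1.03, Bcl3 at 0.22 and -0.64, and Mycl at 0.26 and 0.57, with none of the 3 called on those days. Irf8 was at -0.77 and then -2.46, where it was called again (adjusted p = 0.0391).

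The change of the RANKL effect between days was tested itself. From day 2 to day 4, 1 probe set passed (0.00805%), for Ank, a transporter of pyrophosphate, whose effect was 0.68 ± 0.19 at day 2 and 2.94 at day 4. From day 2 to day 5, 1 passed (0.00805%), for Itgav, the alpha v integrin chain, at 0.12 ± 0.23 at day 2 and 3.24 at day 5. Neither of these was called at day 2. No probe set passed the day 4 test under quantile normalization, with no intensity trend, with the replicate block, with the beta-actin ratio or without any single array of day 2 or day 4 or control array of day 3. None passed the day 5 test with no trend, with the block or without any single array of day 2, control array of day 3 or RANKL day 5 replicate 2. No gene called at day 2 passed either test, so the differences in size given above were not told apart from the spread.

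**Figure D4:**
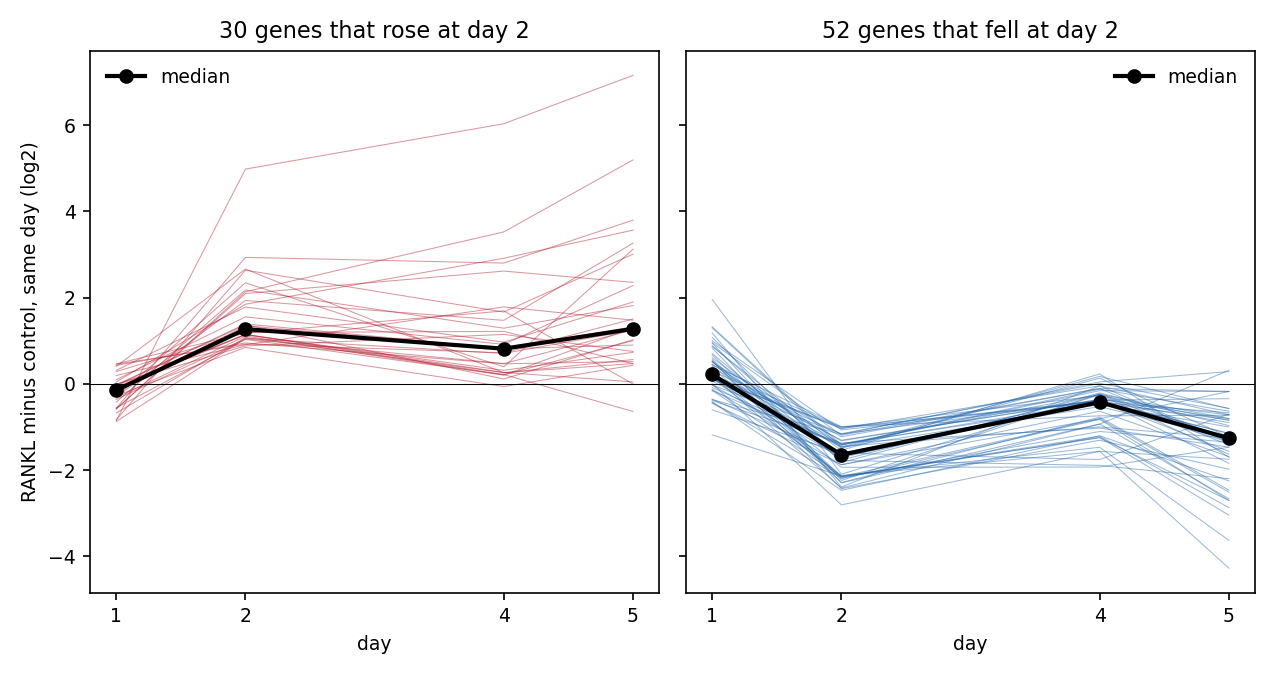
Difference between RANKL and control of the same day (y axis, log2) at days 1, 2, 4 and 5 (x axis) for the genes that rose (left) and fell (right) at day 2, with 1 thin line a gene and the median in black. The day 1 medians are -0.15 for the rises and 0.22 for the falls, and of the later days the falls lie nearest to 0 at day 4.

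Day 1, with 1 array a group and so no test within the day, gave a starting level. At day 1 the difference had the day 2 sign for 9 of the 30 rises and 14 of the 52 falls, with medians of -0.15 and 0.22. Set against the mean of the 2 day 1 arrays, the RANKL arrays of day 2 were higher for 29 of the 30 rises, by a median of 0.74, and the controls were lower for 25, with a median of -0.66. For the falls, RANKL was below day 1 for all 52, with a median of -0.90, and the controls were above it for 51, with a median of 0.75. The day 1 mean lay between the day 2 groups for 24 of the 30 rises and 51 of the 52 falls, against 33.2% and 36.4% of all genes of the same sign. A choice by large differences favours such a position, so it is given as a description.

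The genes differed in which group had moved. Ctsk and Ccr1 were 2.28 and 2.28 above day 1 with RANKL, and 0.14 and 0.18 above it in the controls. Nfatc1, Nfkb2 and Bcl3 were within 0.15 of their day 1 level with RANKL and below it by a difference of -1.70, -1.35 and -1.12 in the controls. Nfatc1 read 4410 on the control and 4548 on the RANKL array of day 1. Acp5 moved both ways, 2.97 up with RANKL and to -2.02 in the controls. Of the falls, Itgam was at -1.13 with RANKL and 0.74 in the controls, and Adgre1 at -0.27 and 1.13.

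**Figure D5:**
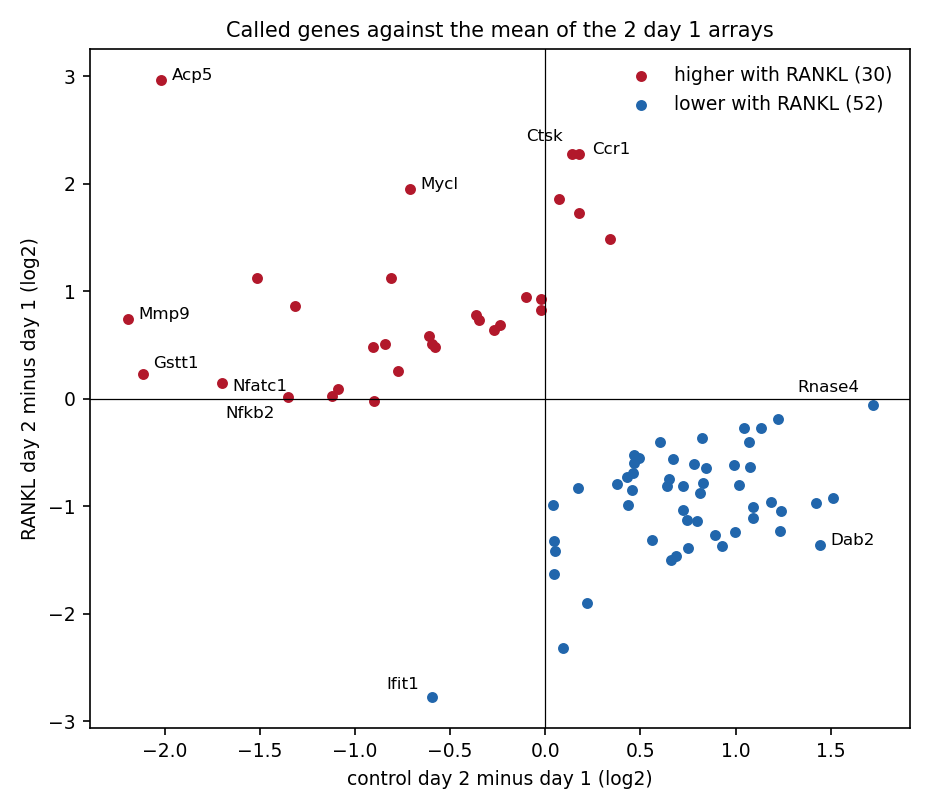
Change from the mean of the 2 day 1 arrays to day 2 in RANKL cells (y axis, log2) and in control cells (x axis, log2) for the 82 genes called at day 2, red where higher and blue where lower with RANKL. Most rises lie in the upper left and nearly all falls in the lower right; Nfatc1 and Nfkb2 lie on the horizontal axis and Ctsk and Ccr1 near the vertical one.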

How the data were processed

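Biotinylated RNA of RAW 264.7 cells was hybridised to Affymetrix mouse arrays, and the authors deposited 1 signal intensity per probe set, made with MAS5 per the submitters' processing notes (version and detection calls not given in the sources used here). These intensities were used as deposited, with no further scaling. After removal of 66 AFFX controls, 12422 probe sets were tested. Probe sets were named through the platform annotation: 10833 had 1 gene, 396 several and 1193 none. Where a gene had several, the one brightest on average over all arrays (log2) stood for it.

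limma 3.58.1 (R 4.3.3) was fitted to log2(signal + 32) with 1 mean per group over all 15 arrays in 9 groups (lmFit, eBayes with an intensity trend), and p-values were adjusted by Benjamini-Hochberg over all probe sets. The residual degrees of freedom were 6. The script was tested on simulated data. Array data give no count of reads, so the number of arrays limits the precision.

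The named genes are the 25 largest called rises and falls, up to 6 called members of each of 36 gene lists (3 uncalled ones where none was), the markers and the largest changes between days. Other list members are named with their values to describe a list. The comparison, genes and lists were chosen with earlier results of these data known. Alternatives were other added constants, quantile normalization, the brighter 50% of probe sets, no trend, a replicate block, the beta-actin ratio as a covariate, the day 2 arrays alone, the fit without day 1, another choice of representing probe set, and each array left out. Promoter sequences are from RefSeq (GRCm38.p6).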

Additional observations from a re-analysis of the deposited data

Results flagged for a closer look

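The RANKL effect on Ank rose from day 2 to day 4 by 2.26 ± 0.27 on the log2 scale (adjusted p = 0.0344 in limma's test of the difference between days). The RANKL effect on Itgav rose from day 2 to day 5 by 3.12 ± 0.37 (adjusted p = 0.0371). Each was the 1 probe set of 12422 that passed its test. The first call was lost under quantile normalization and with the beta-actin ratio, and both were lost with no intensity trend, with the replicate block and without any single array of day 2. No group has 4 or more arrays, so single arrays were not tested as outliers.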

How the results depend on the processing

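Of the 82 genes called at day 2, all those tested kept their direction in each of the 25 alternatives. Only quantile normalization and the beta-actin ratio could have turned a sign. The other fits left the day 2 difference as it was or could not reverse groups whose arrays lay apart. The 106 called probe sets (39 higher, 67 lower) became 68 (24 and 44) with no intensity trend, 27 (10 and 17) with the beta-actin ratio as a covariate and 45 (9 and 36) with only the 4 arrays of day 2; the cause was not tested. With the replicate block, which the labels do not support because they number only the second array, 71 were called, 23 of them higher. Leaving out single arrays gave 2 to 147 calls, 1 to 45 of them higher and 1 to 102 lower, the lowest without control day 2 replicate 2 and the highest without RANKL day 5 replicate 2. The change from day 2 to day 4 gave 0 calls under quantile normalization, no trend, the replicate block and the beta-actin ratio, 5 among the brighter 50% and 0 to 4 without single arrays. The change from day 2 to day 5 gave 3 with a constant of 1, 2 with a constant of 100, 2 among the brighter 50%, 0 with no trend or the replicate block, 3 with the beta-actin ratio and 0 to 10 without single arrays. Among uncalled genes the sign changed without 1 day 2 array for Cd14 (-0.46 to 0.25), Tyrobp (-0.65 to 0.47), Itgb3 (-0.096 to 0.71), Hspb1 (-0.027 to 0.93), Actb (-1.27 to 0.064), Tfrc (-0.013 to 0.63), Gzmb (-0.089 to 1.81), Ltf (-1.12 to 0.27) and Slc4a1 (-0.056 to 0.81). At day 4 the share of the 82 genes with the day 2 direction was 92.7% (90.2% to 96.3% without single arrays), and at day 5 it was 96.3% (92.7% to 96.3%). Of the 106 called probe sets, 38 had a mean signal under 100 in the dimmer group, where background limits the size of a difference.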

Other observations

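Some called probe sets did not represent their gene, and they are given here as values chosen after they were seen. The largest fall of all belonged to a second probe set of Igf1, insulin-like growth factor 1, which read 2934 and 3135 in the controls and 164 and 178 with RANKL (-3.92 ± 0.20, adjusted p = 5.5e-06). The probe set that represents Igf1 was at -0.73 ± 0.18 and not called (adjusted p = 0.112), with signals of 1033 and 1260 in the controls and 746 and 607 with RANKL. Both thus had the RANKL arrays below the controls, at very different sizes. The haematopoietic transcription factor genes Lmo2 and Lyl1 each had 1 probe set called lower, at -1.48 ± 0.20 and -1.96 ± 0.38, and a brighter one that missed the call (adjusted p = 0.122 and 0.061). Of 106 called probe sets, 16 were of this kind and 8 had no single gene in the annotation.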
